A study of Homo sapiens with 8 samples.

Results

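A set of 10 genes of TGF-beta and activin signalling was followed in ribosome footprints of human BJ fibroblasts. The genes were chosen by name as a set of ligands, receptors, inhibitors and targets, with earlier results of these data known. Of the 10, 8 were listed in both deposited tables, which share 10685 genes. INHBA, which encodes the beta A subunit of activin A, and TGFB1, a TGF-beta ligand, were not listed in either table, so no value is given for them. The 8 listed genes were the ligand TGFB2, the matrix protein LTBP2, the receptors TGFBR1 and TGFBR2, the inhibitors SMAD7, GREM1 and FST, and the target gene TGFBI.

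BJ is an established line of human skin fibroblasts, and the labels give the genotype of all cells as BJ-HRAS, after the oncogene HRAS, which knockout and wild-type cells share. There were 4 groups of 2 libraries each: SNORA13 knockout (KO) clones 66 and 69 after 7 days of 100 nM (Z)-4-hydroxytamoxifen (4-OHT), WT clones 15 and 54 after the same treatment, the KO clones without 4-OHT and the WT clones without 4-OHT. SNORA13 is a small nucleolar RNA, and 4-OHT is a ligand of the estrogen receptor that is often used to switch on proteins fused to part of that receptor. The labels describe neither the HRAS construct nor the protein on which 4-OHT acts, and they name no vehicle for the cells without it. Each of the 4 clones was 1 clonal line, so genotype and clone cannot be told apart, and the spread reported here is the spread between 2 clones of a genotype. The libraries with and without 4-OHT stand in separate tables, so 4-OHT and any batch of those tables cannot be told apart either.

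Ligands of this family bind a pair of type II and type I receptors on the cell surface, and the activated type I receptor phosphorylates SMAD proteins, which enter the nucleus and switch on target genes. TGF-beta is secreted in a latent form that is stored in the matrix and has to be released, and antagonists such as follistatin and gremlin bind activins or BMPs outside the cell. In fibroblasts the pathway is known for driving collagen synthesis and contractile genes, and in senescent cells its ligands are known as part of what the cells secrete.

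The promoters of the 4 genes whose footprints fell in both genotypes, and of FST, whose mean was higher with 4-OHT in both, are shown for the sequence around their starts. Each runs from 250 bases before to 50 bases after the start that RefSeq gives on GRCh38.p14, 5′ to 3′ on the gene's strand. Capitals mark the SMAD-binding letters CAGAC or, on the other strand, GTCTG, the AP-1 letters TGANTCA and the TATA box TATAAA, each searched on both strands, and no 2 matches overlapped.
GREM1, chr15:32717754-32718053, plus strand: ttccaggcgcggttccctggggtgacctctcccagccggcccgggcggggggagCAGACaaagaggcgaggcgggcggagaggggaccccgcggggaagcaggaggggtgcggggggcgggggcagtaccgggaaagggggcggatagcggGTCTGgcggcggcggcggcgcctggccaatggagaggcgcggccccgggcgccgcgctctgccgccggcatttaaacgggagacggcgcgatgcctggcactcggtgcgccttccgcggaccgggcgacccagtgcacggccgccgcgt
TGFB2, chr1:218345086-218345385, plus strand: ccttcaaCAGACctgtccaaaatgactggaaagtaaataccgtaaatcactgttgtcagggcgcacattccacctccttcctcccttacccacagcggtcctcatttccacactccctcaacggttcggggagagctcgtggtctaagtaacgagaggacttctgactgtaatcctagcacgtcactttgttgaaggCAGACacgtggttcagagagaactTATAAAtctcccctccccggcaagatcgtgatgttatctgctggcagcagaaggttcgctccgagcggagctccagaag
TGFBI, chr5:136028738-136029037, plus strand: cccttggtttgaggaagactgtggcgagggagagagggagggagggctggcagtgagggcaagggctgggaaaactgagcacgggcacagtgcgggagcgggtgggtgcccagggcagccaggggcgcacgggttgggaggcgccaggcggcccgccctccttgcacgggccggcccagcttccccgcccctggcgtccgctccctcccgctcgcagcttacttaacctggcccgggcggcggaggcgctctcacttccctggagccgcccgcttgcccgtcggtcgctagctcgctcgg
LTBP2, chr14:74612188-74612487, minus strand: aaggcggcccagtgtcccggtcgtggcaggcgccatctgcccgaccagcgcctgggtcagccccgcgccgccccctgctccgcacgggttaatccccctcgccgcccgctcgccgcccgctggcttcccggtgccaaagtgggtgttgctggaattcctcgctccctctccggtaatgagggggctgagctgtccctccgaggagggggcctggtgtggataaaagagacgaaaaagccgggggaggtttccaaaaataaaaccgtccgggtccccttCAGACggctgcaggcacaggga
FST, chr5:53480379-53480678, plus strand: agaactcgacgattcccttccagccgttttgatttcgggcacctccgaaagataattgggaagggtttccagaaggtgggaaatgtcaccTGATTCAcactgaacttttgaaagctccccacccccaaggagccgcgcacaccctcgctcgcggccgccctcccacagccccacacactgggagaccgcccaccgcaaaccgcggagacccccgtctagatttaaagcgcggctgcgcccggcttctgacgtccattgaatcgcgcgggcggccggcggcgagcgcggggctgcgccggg

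CAGAC stood in the windows of GREM1, TGFB2 and LTBP2, a TATAAA in that of TGFB2 alone among these 5, and a TGANTCA in that of FST alone. The TGFBI window held none of them. Of 27305 promoters of the same length, 45.0% held CAGAC on either strand, 7.76% held TGANTCA and 12.0% held TATAAA, so CAGAC is a common run of letters. Among the 9340 of them whose genes were listed, the shares were 43.0%, 4.82% and 5.87%. A match is a run of letters and was not tested as a binding site.

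Values are footprint RPKM, the reads of ribosome-covered mRNA fragments scaled to the length of the gene and to the reads of the library. The length behind them is the span of the gene with its introns, so levels are compared between samples of 1 gene and not between genes. Approximate reads behind each value were recovered from the values, and the libraries held between 190897 reads (KO clone 66 with 4-OHT) and 1710466 reads (KO clone 69 without 4-OHT). RNA abundance was not analysed here, so an amount of mRNA and its translation are measured together, and in bulk samples fewer cells of a type and less RNA per cell cannot be told apart. All 12 fibroblast markers were listed and above 0 in every library. Their summed share of reads was between 2.93% and 3.51% with 4-OHT and between 6.59% and 8.39% without it. COL1A1, COL1A2 and COL3A1 are among these markers and also stand on the list of target genes below, where they fell in both genotypes. Of the other marker lists, leukocyte genes (3 of 8 listed in each table) reached at most 0.0409% with 4-OHT and 0.0292% without, and epithelial genes (2 and 3 of 7) at most 0.0213% and 0.0388%. Keratinocyte genes (2 of 9) reached at most 0.00458% with 4-OHT and 3.79e-04% without, endothelial genes (2 of 7) at most 2.37e-04% and 2.53e-04%, and none of 6 melanocyte markers was listed. EPCAM, KRT5, KRT14 and CDH5 were not listed in either table. The part of these shares in the results below was not tested.

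The first comparison asked what 7 days of 4-OHT did to these genes within each genotype. GREM1, TGFBI, LTBP2 and TGFB2 fell in KO clones and in WT clones. The receptors TGFBR1 and TGFBR2 and the activin antagonist FST did not pass the test in either genotype. With limma-trend on log2(RPKM + 1), 4 of 7 tested members were lower in KO clones, against 10.6% of all 8777 tested genes (27.7% called in either direction), and 4 of 7 were lower in WT clones, against 8.06% (21.5% in either direction). Limma-voom on the recovered reads also called 4 members lower in each genotype, against 10.9% of all genes in KO clones and 12.7% in WT clones. Among all listed genes, 24.4% in KO clones and 25.8% in WT clones were lower with groups that did not overlap. TGFB2 and TGFBI passed the read filter through the libraries without 4-OHT alone. The members were also chosen with earlier results of these data known, so these counts are a description. In the plot of every library, the values with 4-OHT of GREM1, TGFB2, TGFBI and LTBP2 all lie below those without it.

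**Figure D1:**
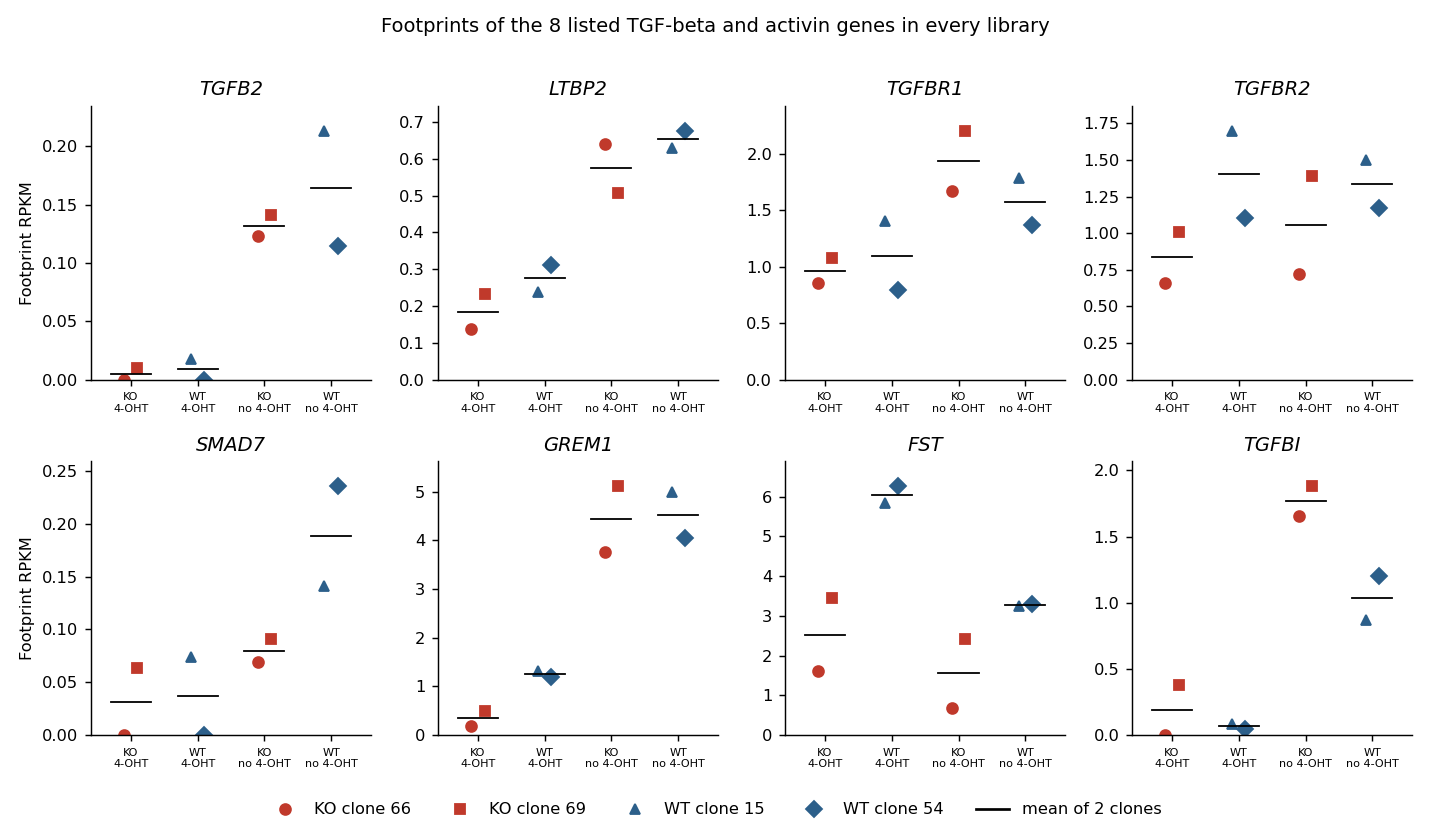
Footprint RPKM (vertical axis, from 0, a scale of its own in each panel) of the 8 listed genes in each of the 8 libraries, with 4-OHT on the left of each panel and without it on the right. Points are libraries, shaped by clone and coloured by genotype, and bars are means of 2 clones. GREM1 lies between 0.193 and 1.31 RPKM with 4-OHT and between 3.76 and 5.11 RPKM without it.

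TGFB2 (ENSG00000092969.12, chromosome 1, 218345336 to 218444619), a TGF-beta ligand, nearly disappeared from the footprints with 4-OHT. In KO clones 66 and 69 it had 0 and 0.0103 RPKM with 4-OHT, from 0 and 1 recovered reads, against 0.123 and 0.141 RPKM without it, from 11 and 24 reads. In WT clones 15 and 54 it had 0.0179 and 0 RPKM with 4-OHT, from 3 and 0 reads, against 0.213 and 0.115 RPKM without it, from 28 and 9 reads. All 4 libraries with 4-OHT lay below all 4 without it. The zeros allow up to 0.158 RPKM in KO clone 66 and up to 0.0513 RPKM in WT clone 54, the values that 3 reads would give there, and the first of these limits is above every value but 1 of the libraries without 4-OHT. Summed over both clones and scaled by depth, reads with 4-OHT were 0.0636 of those without it in KO clones (95% exact interval 0.00157 to 0.379) and 0.0753 in WT clones (0.0148 to 0.238). These intervals, and those below, cover counting error only.

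On the log2(RPKM + 1) scale, where low values move little, the change of TGFB2 was -0.17 ± 0.05 in KO clones (SE, limma-trend adjusted p = 0.0368) and -0.20 ± 0.05 in WT clones (adjusted p = 0.0237). By limma-voom on the recovered reads it was -2.83 ± 1.01 (adjusted p = 0.0335) in KO clones and -3.59 ± 1.00 (adjusted p = 0.00643) in WT clones. With the clone as a block the limma-trend call in KO clones was lost (adjusted p = 0.0534). It was also lost with the 4 KO libraries alone in the fit (adjusted p = 0.0808) and when 1 library was left out, namely either KO clone without 4-OHT, KO clone 66 with 4-OHT or either WT clone with 4-OHT. The WT call was lost when WT clone 15 in either condition or WT clone 54 with 4-OHT was left out.

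LTBP2 (ENSG00000119681.12, chromosome 14, 74498183 to 74612237) is a matrix protein of the family that stores latent TGF-beta, although it is not itself known to bind it, and it sits on fibrillin microfibrils. It had 0.138 and 0.232 RPKM in KO clones 66 and 69 with 4-OHT, from 3 and 26 reads, against 0.642 and 0.507 RPKM without it, from 66 and 99 reads. In WT clones 15 and 54 it had 0.239 and 0.313 RPKM with 4-OHT, from 46 and 21 reads, against 0.630 and 0.676 RPKM without it, from 95 and 61 reads. The groups did not overlap in either genotype. Scaled reads with 4-OHT were 0.391 of those without it in KO clones (95% exact interval 0.254 to 0.583) and 0.399 in WT clones (0.295 to 0.534).

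Limma-trend gave LTBP2 a change of -0.41 ± 0.10 in KO clones (SE, adjusted p = 0.0207) and -0.37 ± 0.10 in WT clones (adjusted p = 0.0338). The corresponding limma-voom values were -1.36 ± 0.48 (adjusted p = 0.0312) in KO clones and -1.32 ± 0.34 (adjusted p = 0.00381) in WT clones. With the clone as a block neither limma-trend call held (adjusted p = 0.052 in KO clones and 0.0759 in WT clones). The KO call was also lost with the 4 KO libraries alone in the fit (adjusted p = 0.0697) and without KO clone 66 in either condition. The WT call was also lost without any 1 of the 4 WT libraries, without the read filter and with a pseudocount of 0.1 (adjusted p = 0.0805).

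TGFBR2 (ENSG00000163513.17, chromosome 3, 30606356 to 30694142) is the type II receptor of TGF-beta. It had 0.658 and 1.01 RPKM in KO clones 66 and 69 with 4-OHT, against 0.721 and 1.39 RPKM without it, and 1.70 and 1.10 RPKM in WT clones 15 and 54 with 4-OHT, against 1.50 and 1.17 RPKM without it. The groups overlapped in both genotypes. The limma-trend change was -0.15 ± 0.24 in KO clones (SE, adjusted p = 0.674) and 0.03 ± 0.24 in WT clones (adjusted p = 0.945), the second turning to -0.13 under median-ratio scaling. Scaled reads with 4-OHT were 0.824 of those without it in KO clones (95% exact interval 0.646 to 1.04) and 1.12 in WT clones (0.947 to 1.33).

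TGFBR1 (ENSG00000106799.13, chromosome 9, 99103647 to 99154192) is the type I receptor, the kinase that phosphorylates SMAD2 and SMAD3. It had 0.854 and 1.08 RPKM in KO clones 66 and 69 with 4-OHT, against 1.67 and 2.20 RPKM without it, and these groups did not overlap. In WT clones 15 and 54 it had 1.40 and 0.796 RPKM with 4-OHT, against 1.79 and 1.37 RPKM without it, and clone 15 with 4-OHT lay just above clone 54 without it. The limma-trend change was -0.58 ± 0.23 in KO clones (SE, adjusted p = 0.104) and -0.31 ± 0.23 in WT clones (adjusted p = 0.395). The KO value passed the threshold under median-ratio scaling (-0.77, adjusted p = 0.0406) and by limma-voom with the clone as a block (adjusted p = 0.0303), but not by limma-voom without the block (adjusted p = 0.0635). The span used for TGFBR1 does not turn its values into whole reads, so its reads are approximate.

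SMAD7 (ENSG00000101665.9, chromosome 18, 48919853 to 48950965), the inhibitory SMAD that the pathway itself switches on, was too shallow to test. It had 0 and 0.0632 RPKM in KO clones 66 and 69 with 4-OHT, from 0 and 2 reads, against 0.0689 and 0.0908 RPKM without it, from 2 and 5 reads. In WT clones 15 and 54 it had 0.0737 and 0 RPKM with 4-OHT, from 4 and 0 reads, against 0.141 and 0.236 RPKM without it, from 6 reads each. The libraries with 4-OHT were the lower ones in both genotypes. The zeros allow up to 0.505 RPKM in KO clone 66 and 0.164 RPKM in WT clone 54, the first being above every SMAD7 value of the libraries without 4-OHT, and a difference was not detectable at this depth.

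GREM1 (ENSG00000166923.11, chromosome 15, 32718004 to 32745106), which encodes gremlin, a secreted antagonist of BMPs, changed most of the 7 tested members on the log2(RPKM + 1) scale in both genotypes. It had 0.193 and 0.488 RPKM in KO clones 66 and 69 with 4-OHT, from 1 and 13 reads, against 3.76 and 5.11 RPKM without it, from 92 and 237 reads. In WT clones 15 and 54 it had 1.31 and 1.19 RPKM with 4-OHT, from 60 and 19 reads, against 4.996 and 4.06 RPKM without it, from 179 and 87 reads. Each library with 4-OHT lay below each without it, and both KO values with 4-OHT lay below both WT values. The means were 0.341 ± 0.209 RPKM in KO clones with 4-OHT against 4.44 ± 0.954 RPKM without it, and 1.25 ± 0.0865 RPKM in WT clones with 4-OHT against 4.53 ± 0.662 RPKM without it (SD, n = 2 each).

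By limma-trend GREM1 changed by -2.02 ± 0.23 in KO clones (SE, adjusted p = 0.00123) and by -1.29 ± 0.23 in WT clones (adjusted p = 0.00783). The limma-voom values were -3.35 ± 0.64 (adjusted p = 2.13e-04) in KO clones and -1.83 ± 0.33 (adjusted p = 8.57e-05) in WT clones. Scaled reads with 4-OHT were 0.0948 of those without it in KO clones (95% exact interval 0.0512 to 0.161) and 0.276 in WT clones (0.212 to 0.356). The KO call held under all 15 alternatives, and the WT call under 13 of 15, being lost when the library of WT clone 15 without 4-OHT or of WT clone 54 with 4-OHT was left out.

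FST (ENSG00000134363.12, chromosome 5, 53480629 to 53487134) encodes follistatin, which binds activin and keeps it from its receptors. Its values with 4-OHT were 1.61 and 3.44 RPKM in KO clones 66 and 69, from 2 and 22 reads, against 0.682 and 2.43 RPKM without it, from 4 and 27 reads. WT clones 15 and 54 had 5.83 and 6.26 RPKM with 4-OHT, from 64 and 24 reads, against 3.26 and 3.30 RPKM without it, from 28 and 17 reads. FST was higher with 4-OHT in each of the 4 clones. The groups did not overlap in WT clones, as for 37.7% of all listed genes in that direction, and overlapped in KO clones.

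Neither change of FST passed limma-trend, with 0.50 ± 0.38 in KO clones (SE, adjusted p = 0.35) and 0.72 ± 0.38 in WT clones (adjusted p = 0.223). Limma-voom gave 0.96 ± 0.70 (adjusted p = 0.316) in KO clones and 0.85 ± 0.44 (adjusted p = 0.14) in WT clones. With the 4 WT libraries alone in the fit, the WT value passed (adjusted p = 0.0262). Scaled reads with 4-OHT were 1.72 times those without it in KO clones (95% exact interval 0.968 to 3.03) and 1.82 times in WT clones (1.25 to 2.66).

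TGFBI (ENSG00000120708.17, chromosome 5, 136028988 to 136063818), a secreted matrix protein named for its induction by TGF-beta, fell in both genotypes. KO clones 66 and 69 had 0 and 0.380 RPKM with 4-OHT, from 0 and 13 reads, against 1.66 and 1.88 RPKM without it, from 52 and 112 reads. WT clones 15 and 54 had 0.0851 and 0.0487 RPKM with 4-OHT, from 5 and 1 reads, against 0.869 and 1.20 RPKM without it, from 40 and 33 reads. The highest value with 4-OHT, in KO clone 69, was below the lowest value without it, in WT clone 15. In KO clone 66 the zero allows up to 0.451 RPKM, which is also below every library without 4-OHT.

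The limma-trend change of TGFBI was -1.24 ± 0.18 in KO clones (SE, adjusted p = 0.00339) and -0.93 ± 0.18 in WT clones (adjusted p = 0.0118). Limma-voom gave -2.83 ± 0.78 (adjusted p = 0.00691) in KO clones and -3.53 ± 0.82 (adjusted p = 0.00142) in WT clones. Scaled reads with 4-OHT were 0.177 of those without it in KO clones (95% exact interval 0.092 to 0.31) and 0.0763 in WT clones (0.0271 to 0.174). The KO call held under all 15 alternatives, and the WT call was lost without WT clone 54 without 4-OHT or without either WT clone with 4-OHT.

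**Figure D2:**
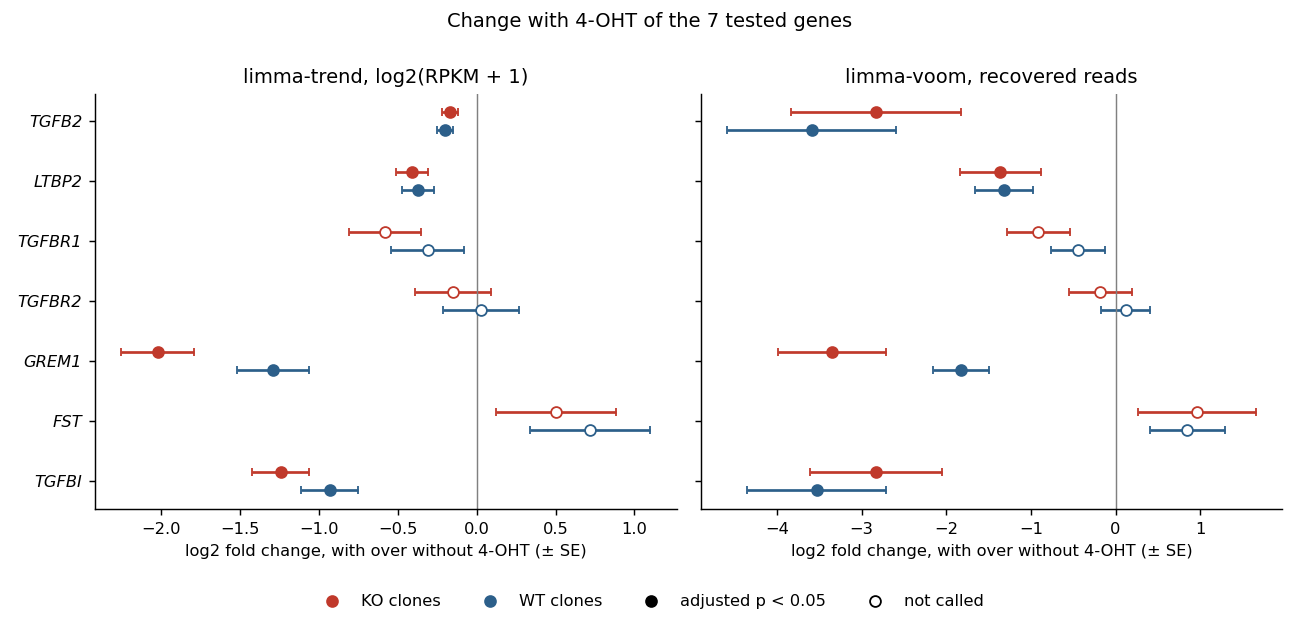
Log2 fold change with over without 4-OHT (horizontal axis, points ± SE) of the 7 tested genes by limma-trend on log2(RPKM + 1) and by limma-voom on recovered reads, KO clones above WT clones for each gene, filled where the adjusted p was under 0.05. Both methods called the same 4 genes, and TGFB2 moved from -0.17 (KO) and -0.20 (WT) by limma-trend to -2.83 and -3.59 by limma-voom.

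The number of members called depended on single libraries. In WT clones it was 0 without clone 54 with 4-OHT, 1 without clone 15 with 4-OHT, 1 without clone 15 without 4-OHT and 2 without clone 54 without 4-OHT. In KO clones it was 2 without clone 66 in either condition, 2 with the clone as a block and 2 with the 4 KO libraries alone in the fit. An exact permutation test of 2 libraries against 2 can give no p below 0.333, so single values were given none.

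The other genes of the pathway were read from 6 lists by role, in the same fits. Footprints of TGF-beta target genes and of proteins that store and activate the ligand moved in both directions, with collagens and thrombospondin-1 among those that fell. By limma-trend no more than 1 receptor and 1 SMAD passed in a genotype. The lists were chosen with earlier results of these data known, so their counts are a description. Over all 8777 tested genes, limma-trend called 17.1% higher and 10.6% lower in KO clones, with a median change of 0.05, and 13.5% higher and 8.06% lower in WT clones, with a median of 0.06. Limma-voom called 21.3% higher and 10.9% lower in KO clones and 21.0% higher and 12.7% lower in WT clones. Of the genes that the naming rule picked, BMP1, ACVR2A, SMAD9 and ID2 passed the read filter through the libraries without 4-OHT alone and NBL1 through those with it alone, so they were tested only because they were high there, and their values are a description. The span used for NBL1 does not turn its values into whole reads, so its reads and its place in the filter are approximate. For genes named after their values were seen, the way through the filter was not looked at.

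Of 10 other ligands and proteins of the ligand list that were listed, 3 were tested, of which 1 was lower in KO clones and 2 in WT clones, with a median of -0.88 in KO clones and -0.70 in WT clones. Both medians are the values of BMP1, which was also the only call in KO clones. BMP1, a procollagen protease despite its name, fell in both genotypes, to 0 and 0.194 RPKM in KO clones with 4-OHT against 1.10 and 0.917 RPKM without it, and to 0.226 and 0.108 RPKM in WT clones with 4-OHT against 0.753 and 1.05 RPKM without it. These are 0 and 9 reads in KO clones with 4-OHT and 18 and 3 in WT clones with 4-OHT, and the zero of KO clone 66 allows up to 0.335 RPKM. Limma-trend gave it -0.88 ± 0.14 (SE, adjusted p = 0.00452) in KO clones and -0.70 ± 0.14 (adjusted p = 0.0126) in WT clones, the WT call being lost with a pseudocount of 0.1 and without WT clone 54 in either condition. BMP4, a ligand that gremlin binds, had 8.87 and 1.72 RPKM in KO clones 66 and 69 with 4-OHT, against 7.82 and 9.48 RPKM without it, and these groups overlapped. WT clones had 2.26 and 1.20 RPKM of BMP4 with 4-OHT, against 10.9 and 8.56 RPKM without it. Its change was -0.89 ± 0.54 in KO clones (limma-trend adjusted p = 0.256), where limma-voom called it lower (-1.86 ± 0.48, adjusted p = 0.00431, and 0.0377 with the clone as a block), and -1.99 ± 0.54 in WT clones (adjusted p = 0.0382), a call that was lost without the read filter and without any 1 of the WT libraries or of the KO libraries without 4-OHT.

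Among 7 tested receptors, 1 was lower and none higher in each genotype, near the share over all genes, with medians of -0.22 in KO clones and -0.24 in WT clones. Limma-voom called 2 receptors lower in KO clones, NEO1 and TGFBR3, and 3 in WT clones, TGFBR3, ENG and ACVR2A, names given here after their values were seen. The gene that limma-trend called was ACVR2A, a type II receptor of activin, with 0 and 0.106 RPKM in KO clones with 4-OHT against 0.206 and 0.244 RPKM without it, and 0.0756 and 0.0197 RPKM in WT clones with 4-OHT against 0.280 and 0.293 RPKM without it. With 4-OHT these are 0 and 9 reads in KO clones and 11 and 1 reads in WT clones, and the zero of KO clone 66 allows up to 0.182 RPKM. Its limma-trend change was -0.22 ± 0.06 in KO clones (SE, adjusted p = 0.0383), a call held under 2 of 15 alternatives only and lost with the clone as a block (adjusted p = 0.0534), and -0.30 ± 0.06 in WT clones (adjusted p = 0.0154), a call lost without either WT clone without 4-OHT or WT clone 54 with 4-OHT. Of 6 tested SMADs, 1 was lower in KO clones and none in WT clones, with medians of -0.14 in KO clones and -0.12 in WT clones, and limma-voom called 1 higher in KO clones, and 1 higher and 1 lower in WT clones. SMAD9, a SMAD of the BMP branch, changed by -0.18 ± 0.05 in KO clones (limma-trend adjusted p = 0.0435, and 0.0502 with the clone as a block), from 5 reads with 4-OHT and 36 without it, a call held under 3 of 12 alternatives.

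Of 12 tested genes of the inhibitor list, 3 rose and 1 fell in KO clones, and 3 rose and 2 fell in WT clones, with medians of 0.09 in KO clones and -0.11 in WT clones. Over all tested genes, 17.1% were called higher and 10.6% lower in KO clones, and 13.5% and 8.06% in WT clones. The genes that fell were FSTL1 in both genotypes and USP9X in WT clones (-0.64). USP9X is named here after its values were seen, and whether it acts as an inhibitor was not tested. Limma-voom called 3 higher and 2 lower in KO clones and 3 higher and 3 lower in WT clones. SMURF2, a ubiquitin ligase that works with SMAD7 to remove the receptors, reached 2.54 ± 0.326 RPKM in KO clones with 4-OHT against 0.306 ± 0.132 RPKM without it, and 3.20 ± 0.440 RPKM in WT clones with 4-OHT against 0.295 ± 0.0291 RPKM without it (SD, n = 2 each). TGIF1, a corepressor of SMADs, reached 2.58 ± 0.492 RPKM in KO clones with 4-OHT against 0.597 ± 0.170 RPKM without it, and 1.80 ± 0.143 RPKM in WT clones with 4-OHT against 0.364 ± 0.130 RPKM without it. NBL1, a secreted BMP antagonist of the same family as gremlin, reached 2.83 ± 0.727 RPKM in KO clones with 4-OHT against 0.397 ± 0.0742 RPKM without it, and 1.76 ± 0.172 RPKM in WT clones with 4-OHT against 0.380 ± 0.0401 RPKM without it. GREM1 fell and NBL1 rose in both genotypes.

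The limma-trend changes of SMURF2 were 1.44 ± 0.20 in KO clones (SE, adjusted p = 0.00242) and 1.69 ± 0.20 in WT clones (adjusted p = 0.00157). TGIF1 changed by 1.16 ± 0.20 (adjusted p = 0.00592) in KO clones and 1.04 ± 0.20 (adjusted p = 0.0109) in WT clones. NBL1 changed by 1.44 ± 0.20 (adjusted p = 0.00261) in KO clones and 1.00 ± 0.20 (adjusted p = 0.0125) in WT clones. The WT call of NBL1 was lost without any 1 of the WT libraries and that of TGIF1 without either WT clone without 4-OHT or WT clone 54 with 4-OHT, and the KO call of TGIF1 without KO clone 66 without 4-OHT. FSTL1, a secreted relative of follistatin, fell to 16.4 ± 1.74 RPKM in KO clones with 4-OHT against 47.0 ± 0.279 RPKM without it, and to 15.3 ± 1.51 RPKM in WT clones with 4-OHT against 50.02 ± 5.14 RPKM without it. FSTL1 changed by -1.46 ± 0.18 (limma-trend adjusted p = 0.00159) in KO clones and -1.65 ± 0.18 (adjusted p = 0.00121) in WT clones.

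**Figure D3:**
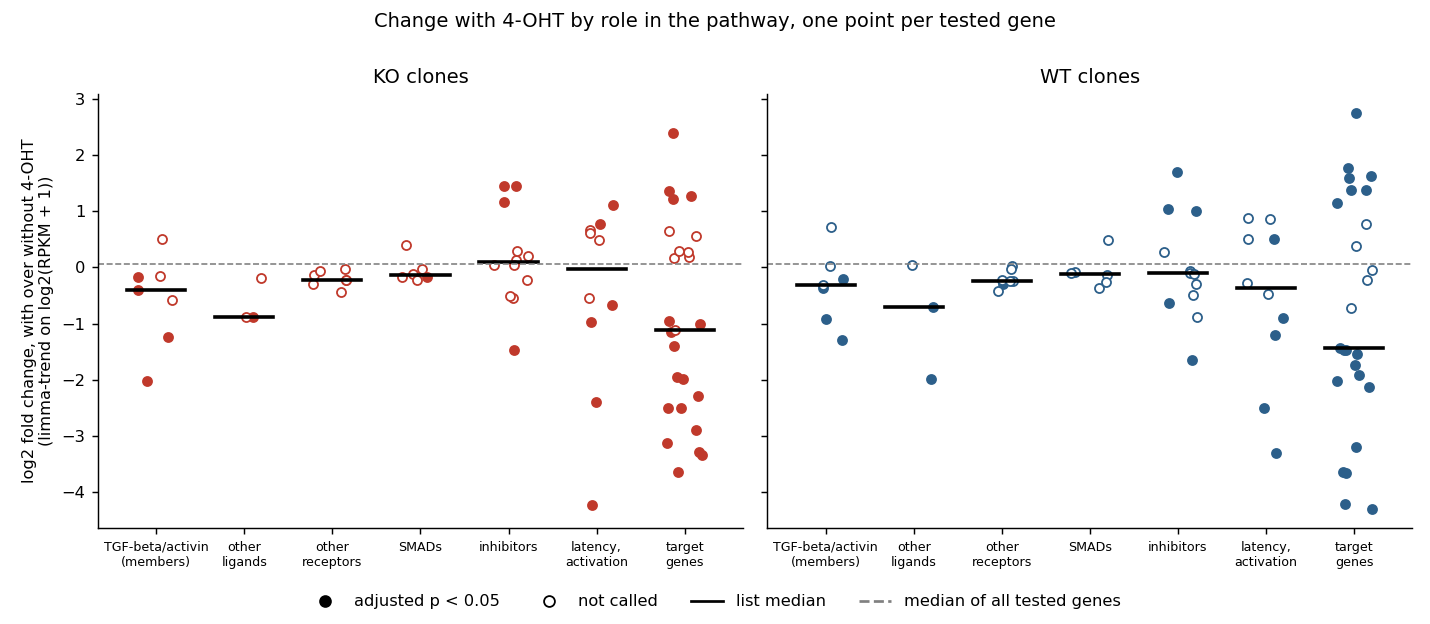
Log2 fold change with over without 4-OHT (vertical axis, limma-trend on log2(RPKM + 1)) of every tested gene of the members and of 6 lists by role, KO clones on the left and WT clones on the right. Points are genes, filled where the adjusted p was under 0.05, bars are list medians, and the dashed line is the median of all tested genes (0.05 in KO clones, 0.06 in WT clones). The target genes spread in both directions around a median of -1.11 in KO clones and -1.43 in WT clones.

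In the list of latency and activation, 2 of 10 tested genes rose and 4 fell in KO clones, and 1 rose and 4 fell in WT clones, with medians of -0.03 in KO clones and -0.38 in WT clones. Limma-voom called 4 higher and 5 lower in KO clones and 4 higher and 4 lower in WT clones. LTBP1, which holds latent TGF-beta in the matrix and was chosen after its values were seen, rose in both genotypes by both methods (0.76 ± 0.10 in KO clones, SE, limma-trend adjusted p = 0.00204, and 0.50 ± 0.10 in WT clones, adjusted p = 0.0114). How LTBP1 passed the read filter was not looked at, so its calls are a description. THBS1, thrombospondin-1, which can release active TGF-beta from its latent complex, had 156.6 ± 23.5 RPKM in KO clones with 4-OHT against 2936 ± 122.5 RPKM without it, and 228.9 ± 48.7 RPKM in WT clones with 4-OHT against 2241 ± 133.9 RPKM without it. FBN1, the fibrillin of the microfibrils that hold latent complexes, had 3.10 ± 0.140 RPKM in KO clones with 4-OHT against 20.5 ± 1.79 RPKM without it, and 2.09 ± 0.0498 RPKM in WT clones with 4-OHT against 16.5 ± 0.512 RPKM without it. ITGAV, the alpha chain of integrins that activate latent TGF-beta, had 1.38 ± 0.0766 RPKM in KO clones with 4-OHT against 3.67 ± 0.243 RPKM without it, and 1.13 ± 0.0418 RPKM in WT clones with 4-OHT against 3.89 ± 0.0526 RPKM without it (SD, n = 2 each). THBS1, FBN1 and ITGAV fell in both genotypes, as did LTBP2, while LTBP1 rose.

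THBS1 changed by -4.23 ± 0.22 in KO clones (SE, limma-trend adjusted p = 1.05e-04) and by -3.30 ± 0.22 in WT clones (adjusted p = 2.39e-04). For FBN1 the changes were -2.39 ± 0.17 (adjusted p = 2.54e-04) in KO clones and -2.50 ± 0.17 (adjusted p = 3.04e-04) in WT clones, and for ITGAV -0.97 ± 0.18 (adjusted p = 0.00825) in KO clones, a call lost with the 4 KO libraries alone in the fit and without KO clone 66 without 4-OHT, and -1.20 ± 0.18 (adjusted p = 0.00418) in WT clones. FURIN, the protease that cleaves TGF-beta precursors, had 7.75 and 3.42 RPKM in KO clones 66 and 69 with 4-OHT against 1.86 and 1.93 RPKM without it, and 5.38 and 6.62 RPKM in WT clones with 4-OHT against 2.80 and 2.81 RPKM without it. Its change was 1.10 ± 0.32 in KO clones (limma-trend adjusted p = 0.038, and 0.0517 with the clone as a block), a call held under 4 of 15 alternatives. In WT clones it was 0.88 ± 0.32 (adjusted p = 0.0932), a value that passed under 5 of 15 alternatives. Limma-voom called FURIN higher in both genotypes, with 1.07 ± 0.39 (adjusted p = 0.0376) in KO clones and 1.03 ± 0.33 (adjusted p = 0.0157) in WT clones.

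Of 25 tested target genes of TGF-beta in fibroblasts, 4 rose and 14 fell in KO clones, and 7 rose and 13 fell in WT clones. Over all tested genes, 17.1% were called higher and 10.6% lower in KO clones, and 13.5% and 8.06% in WT clones. Limma-voom called 4 higher and 15 lower in KO clones and 8 higher and 13 lower in WT clones. IL11 and TIMP3, named here after their values were seen, were called higher in both genotypes by both methods. Their limma-trend changes were 2.39 and 1.36 in KO clones and 2.74 and 1.60 in WT clones. By limma-trend SNAI2 was also called higher in KO clones, and BHLHE40, CCN1, CDKN2B and JUNB in WT clones. These too were named after their values were seen. How IL11, TIMP3 and these genes passed the read filter was not looked at, so their calls are a description. COL1A1, a chain of type I collagen, had 111.2 ± 6.95 RPKM in KO clones with 4-OHT against 1103 ± 169.6 RPKM without it, and 83.1 ± 8.60 RPKM in WT clones with 4-OHT against 1646 ± 74.05 RPKM without it (SD, n = 2 each). COL3A1, the chain of type III collagen, had 7.31 ± 1.23 RPKM in KO clones with 4-OHT against 103.8 ± 21.0 RPKM without it, and 4.70 ± 0.528 RPKM in WT clones with 4-OHT against 105.1 ± 1.91 RPKM without it. ID2, an inhibitor of differentiation that BMPs induce, had 0.934 and 0.908 RPKM in KO clones 66 and 69 with 4-OHT against 14.6 and 17.0 RPKM without it, and 0.211 and 0.908 RPKM in WT clones 15 and 54 with 4-OHT against 22.3 and 14.9 RPKM without it. With 4-OHT the ID2 values rest on at most about 2 recovered reads a library, but its span does not turn them into whole reads. Before rounding they stand in steps of about 0.43, so the true reads may be more. The 3 genes fell in both genotypes (limma-trend changes of -3.29 ± 0.19, -3.65 ± 0.21 and -3.13 ± 0.28 in KO clones, with adjusted p of 1.16e-04, 1.16e-04 and 6.48e-04, and of -4.29 ± 0.19, -4.22 ± 0.21 and -3.66 ± 0.28 in WT clones, with adjusted p of 6.7e-05, 9.5e-05 and 4.75e-04).

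CCN2, connective tissue growth factor, had 196.6 and 126.4 RPKM in KO clones 66 and 69 with 4-OHT, against 328.1 and 284.5 RPKM without it, and 220.9 and 174.7 RPKM in WT clones 15 and 54 with 4-OHT, against 217.0 and 240.5 RPKM without it. It changed by -0.95 ± 0.25 in KO clones (SE, limma-trend adjusted p = 0.0293), where the groups did not overlap, and by -0.22 ± 0.25 in WT clones (adjusted p = 0.593), where they did. The KO call was lost with the 4 KO libraries alone in the fit and when any 1 of the libraries without 4-OHT or KO clone 69 with 4-OHT was left out, and the difference between the genotypes did not pass its own test (-0.73 ± 0.35, adjusted p = 0.859). TAGLN, transgelin, an actin-binding protein of contractile cells, had 27.3 ± 5.68 RPKM in KO clones with 4-OHT against 283.9 ± 13.4 RPKM without it, and 103.7 ± 11.1 RPKM in WT clones with 4-OHT against 391.6 ± 26.8 RPKM without it (SD, n = 2 each). TAGLN fell by limma-trend in KO clones (-3.34 ± 0.20, adjusted p = 1.46e-04) and in WT clones (-1.91 ± 0.20, adjusted p = 0.0011).

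**Figure D4:**
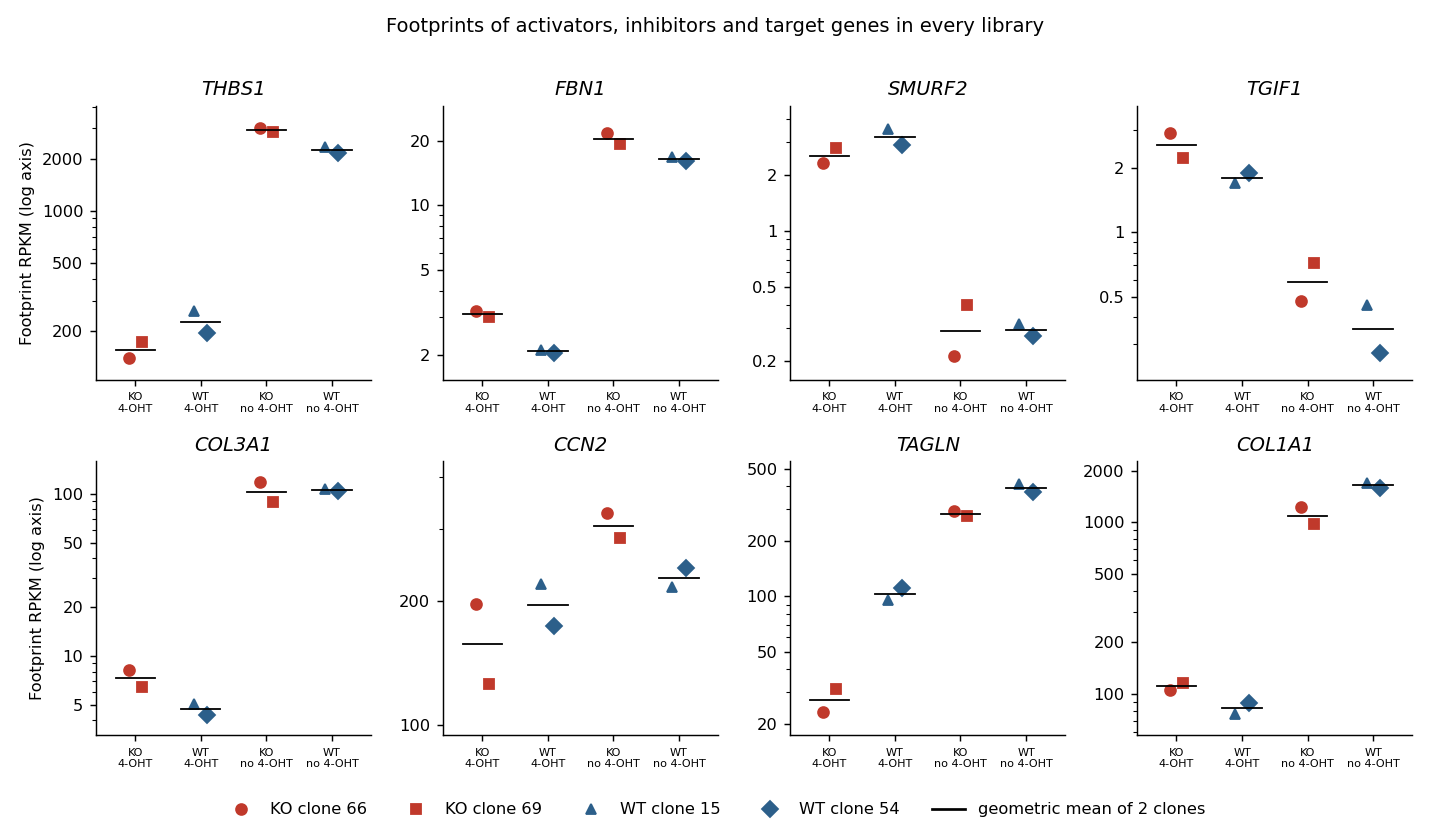
Footprint RPKM (vertical log axis, a scale of its own in each panel) of 8 named genes of the lists in each of the 8 libraries, with 4-OHT on the left of each panel and without it on the right. Points are libraries, shaped by clone and coloured by genotype, and bars are geometric means of 2 clones. SMURF2 and TGIF1 lie higher with 4-OHT in every clone, THBS1, FBN1, COL3A1, TAGLN and COL1A1 lower, and CCN2 of WT clones overlaps between the conditions.

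The next comparison set KO clones against WT clones with 4-OHT. GREM1 and FST were lower in both KO clones than in both WT clones, and no member was called. GREM1 averaged 0.341 ± 0.209 RPKM in KO clones and 1.25 ± 0.0865 RPKM in WT clones, and FST averaged 2.53 ± 1.30 RPKM in KO clones and 6.05 ± 0.304 RPKM in WT clones (SD, n = 2 each). Groups that did not overlap, with KO lower, were also seen for TGFBR2 and LTBP2, that is for 4 of the 8 listed members against 18.4% of all listed genes. Scaled reads in KO clones were 0.344 of those in WT clones for GREM1 (95% exact interval 0.180 to 0.611), 0.529 for FST (0.322 to 0.839), 0.617 for TGFBR2 (0.487 to 0.777) and 0.840 for LTBP2 (0.523 to 1.32). KO clone 66, the shallowest library, holds 1 read of GREM1 and 2 of FST.

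By limma-trend none of 5 tested members passed with 4-OHT, as 0.00% of 7761 genes did, with 2 members and 365 genes at an unadjusted p under 0.05. The 2 were GREM1 (-0.76 ± 0.20, SE, adjusted p = 0.822) and FST (-1.05 ± 0.33, adjusted p = 0.822). TGFBR2 had -0.38 ± 0.26 (adjusted p = 0.822), LTBP2 -0.11 ± 0.09 (adjusted p = 0.829) and TGFBR1 -0.08 ± 0.25 (adjusted p = 0.949). Limma-voom called 56 genes, 0.722% of those tested, and no member. Among the pathway genes that the naming rule picked it called TAGLN (-1.80 ± 0.22, adjusted p = 1.72e-11) and THBS1 (-0.54 ± 0.13, adjusted p = 0.0177), both lower in KO clones. Of the target genes named after their values were seen, it also called TIMP3 (-0.87) and CCN1 (-0.74) lower in KO clones. Without KO clone 69, which leaves clone 66 as the lone KO library and assumes that it varies like the WT clones, 904 genes were called, GREM1 (adjusted p = 0.0107) and FST (adjusted p = 0.0103) among them.

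TGFB2, TGFBI and SMAD7 were not tested with 4-OHT, since fewer than 2 of those libraries reached 10 reads. TGFBI had 13 reads in both KO clones together and 6 in both WT clones, all KO reads in clone 69. These reads are not scaled by depth. In RPKM, TGFBI had 0 and 0.380 in KO clones 66 and 69, against 0.0851 and 0.0487 in WT clones 15 and 54. The groups overlapped for all 3 genes.

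Without 4-OHT, KO clones were set against WT clones in the same way. TGFBI was higher in both KO clones, with 1.66 and 1.88 RPKM in KO clones 66 and 69, against 0.869 and 1.20 RPKM in WT clones 15 and 54, and these groups did not overlap, as for 16.6% of all listed genes in that direction. Scaled reads in KO clones were 1.82 times those in WT clones (95% exact interval 1.37 to 2.43). FST was lower, with 1.55 ± 1.23 RPKM in KO clones and 3.28 ± 0.0345 RPKM in WT clones (SD, n = 2 each), clone 66 being far below clone 69. SMAD7 too was lower in both KO clones, with 7 reads in KO clones and 12 in WT clones. Both groups were separate for FST and SMAD7, as for 18.8% of all listed genes with KO lower. GREM1 read nearly alike, 4.44 ± 0.954 RPKM in KO clones and 4.53 ± 0.662 RPKM in WT clones, with a ratio of scaled reads of 1.00 (95% exact interval 0.848 to 1.18).

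None of 7 tested members passed limma-trend without 4-OHT, as 0.00% of 8162 genes did, with 0 members and 688 genes at an unadjusted p under 0.05. TGFBI had 0.45 ± 0.18 (SE, adjusted p = 0.6) and FST -0.83 ± 0.35 (adjusted p = 0.609). The other 5 lay between -0.20 ± 0.22 for TGFBR2 and 0.19 ± 0.20 for TGFBR1, with TGFB2 at -0.04 ± 0.06, LTBP2 at -0.07 ± 0.12 and GREM1 at -0.03 ± 0.21. Limma-voom called 63 genes, 0.772%, and no member, with TGFBI at an unadjusted p under 0.05. Among the named pathway genes it called COL1A1 (-0.61 ± 0.09, adjusted p = 0.00125), lower in KO clones, and THBS1 (0.38 ± 0.08, adjusted p = 0.011), higher in KO clones.

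Whether the response to 4-OHT differed between the genotypes was tested as the KO change minus the WT change. GREM1 stood furthest from 0 among the 7 tested members, at -0.73 ± 0.32 (SE, limma-trend adjusted p = 0.859) and -1.53 ± 0.72 by limma-voom (adjusted p = 0.996). With over without 4-OHT, its clones had ratios of 0.0514 (clone 66) and 0.0955 (clone 69) in KO and 0.263 (clone 15) and 0.293 (clone 54) in WT, so both KO ratios were the lower ones. TGFBI stood at -0.31 ± 0.26, TGFBR1 at -0.27 ± 0.33, FST at -0.21 ± 0.53, TGFBR2 at -0.18 ± 0.35, LTBP2 at -0.04 ± 0.14 and TGFB2 at 0.03 ± 0.07. None passed limma-trend, as 0.00% of 8777 genes did (453 at an unadjusted p under 0.05, no member among them). Limma-voom called 4 genes, 0.0456%, of which 3 stand on the pathway lists.

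Those were TAGLN (-1.32 ± 0.24, adjusted p = 0.0218), THBS1 (-0.93 ± 0.16, adjusted p = 0.0168) and COL1A1 (1.06 ± 0.18, adjusted p = 0.0168) by limma-voom. TAGLN and THBS1 fell further in KO clones and COL1A1 further in WT clones. By limma-trend the same differences were -1.43 ± 0.28, -0.93 ± 0.30 and 1.00 ± 0.27, each with an adjusted p of 0.859.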

How the data were processed

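Ribosome footprints were measured in 8 libraries, and the authors deposited 1 table of the 4 libraries with 4-OHT and 1 of the 4 without it. The deposited values carry no unit and are read here as RPKM over the span of each gene, introns included, since value times span adds up to almost equal totals across libraries. STAR and GRCh38 are named per the submitters' processing notes, while versions, annotation and read counter stay unnamed in the sources used here. Low values times span are whole multiples of 1 read (77.5% to 82.9% of them within 0.1 of a whole read), which gave approximate reads and depths. Spans came from RefSeq on GRCh38.p14, and 99 genes of each table without one were left out of the tests. Ratios of scaled reads have exact (Clopper-Pearson) intervals at 95%.

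Genes that reached 10 recovered reads in 2 or more libraries were tested with limma-trend (limma 3.58.1, R 4.3.3) on log2(RPKM + 1), with Benjamini-Hochberg adjustment over all tested genes and a threshold of 0.05. The log2 scale with 1 added understates changes of low genes. The changes with 4-OHT and their difference used all 8 libraries (4 residual degrees of freedom), and KO against WT the 4 of a table (2). A count test had been planned for counts, so limma-voom on the recovered reads is an alternative, beside a pseudocount of 0.1, no filter, median-ratio scaling, the clone as a replicate block, other sets of libraries and each library left out. Replicate numbers are clone numbers, so they pair each clone with itself across 4-OHT; deviations of the clones correlated at 0.143 in WT and 0.0075 in KO over 8777 genes. The tests were tried on simulated data. Nothing says that the libraries came from separate cultures beyond the clones, and p-values measure only the spread between clones.

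The members and lists were chosen with earlier results of these data known. Named genes were the members, up to 3 called genes with the largest change per list and 4-OHT comparison whose clones did not overlap, and CCN2. Further genes of the lists were named after their values were seen. A further target gene that the rule names is not reported here.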

Additional observations from a re-analysis of the deposited data

How the results depend on the processing

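The counts of called genes moved when 1 library at a time was left out. The 4 members called in each genotype became 2 to 4 in KO clones and 0 to 4 in WT clones, and all genes called became 1105 to 3488 in KO clones (2427 with all libraries) and 802 to 2558 in WT clones (1889). KO against WT gave 0 to 904 genes and 0 to 2 members with 4-OHT and 0 to 6 genes without it, and the difference of the responses 0 to 2 genes. Limma-voom called 2962 genes in WT clones, 56 between genotypes with 4-OHT, 63 without and 4 for the difference of the responses. With the replicate block, limma-voom called 3025 genes in WT clones and 13 for the difference. With only the 4 libraries of the genotype, 1274 genes and 2 members were called in KO clones, and with all 8 libraries in the fit 3 genes differed between genotypes without 4-OHT.

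The clone as a replicate block left 2 members called in KO clones (GREM1 and TGFBI) and 3 in WT clones. Beside the calls given as lost with it, it changed no call in the 4-OHT comparisons of the genes that the naming rule picked. No paired analysis was possible between genotypes because KO and WT share no clone. Median-ratio scaling moved the median change of all genes to -0.04 in KO clones and -0.02 in WT clones, limma-voom to 0.22 in both. The split of higher and lower calls was 1004 and 1330 in KO clones under median-ratio scaling, against 1498 and 929, and 810 and 961 in WT clones, against 1182 and 707. Under median-ratio scaling TGFB2, TGFBI, GREM1 and LTBP2 stayed called in both genotypes.

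Signs turned for values that limma-trend with all libraries did not call. TGFBR2 was -0.13 in WT clones under median-ratio scaling, and with libraries left out it ranged from -0.39 to 0.09 in KO clones and from -0.15 to 0.21 in WT clones. In KO clones, FST ranged from -0.01 to 1.02 and BMP4 from -1.82 to 0.04. Between genotypes, TGFBR1 ranged from -0.29 to 0.13 with 4-OHT, and TGFB2 from -0.10 to 0.02, TGFBR2 from -0.44 to 0.04 and GREM1 from -0.21 to 0.15 without it. For the difference of the responses, TGFB2 ranged from -0.03 to 0.09, TGFBR2 from -0.42 to 0.05, FST from -0.73 to 0.30 and LTBP2 from -0.10 to 0.03, while TGFBI became 0.70 by limma-voom and 0.73 with the block added, and FST 0.11 by limma-voom. The cause of these turns was not tested. Depth limits TGFB2, SMAD7 and TGFBI with 4-OHT, which rest on 0 to 13 reads a library.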
